A study of Mus musculus with 10 samples.

Results

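The genes described are 6 of the 23589 in a table of UMI counts (unique molecular identifiers, each standing for 1 captured RNA molecule) from single nuclei of mouse brain. They are the corticosteroid receptors Nr3c1 and Nr3c2, the steroid-activating enzyme Hsd11b1, and Fkbp5, Sgk1 and Tsc22d3, which corticosteroids induce in many tissues. They were chosen by name, and all 6 were found in the table. DroNc-seq captures RNA of single nuclei on barcoded beads inside droplets. The tissue was archived, frozen brain of C57BL/6 mice, with no treatment given in the labels, and age and sex are not stated there. The 5 hippocampal libraries are set against 5 cortical ones (prefrontal cortex, per the labels' protocols). Titles number the libraries 0 to 3, with an a and a b library at 0 that were added together, which gave 4 units of hippocampus and 4 of cortex. The series describes tissue of 4 mice and 2 regions, so both regions may come from the same animals. The labels do not tie a number to a mouse, so a p-value here reflects unit-to-unit spread, which may be technical.

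The hippocampus libraries held 5658 nuclei and the cortex libraries 5966, with 1443244 to 2600788 UMIs per library. Libraries of a region differed beyond counting error, with chi-square over degrees of freedom at 1.36 to 7.35, and shared at most 3 cell barcodes. Unit 0 of each region stood apart. Its libraries gave 4.27 to 4.64 against the other hippocampal ones and 6.50 to 7.35 against the other cortical ones, while libraries 1 to 3 gave 1.53 to 1.75 among themselves in hippocampus and 1.36 to 1.42 in cortex. The 2 libraries of cortex unit 0 had medians of 2732 and 2287 UMIs per nucleus, and the other cortical libraries 1106.5 to 1306. Hippocampus unit 0 held 120 of the 130 nuclei with layer 2-3 markers and 79 of the 83 with layer 4-5 markers found in hippocampal libraries. It also held 136 of their 181 thalamic or midbrain neuron-like nuclei. Layer 5 projection-like nuclei occurred in every hippocampal unit, at 34, 25, 17 and 29 in units 0 to 3. Layer 6-like nuclei did too, at 30, 13, 17 and 10. Regional differences in excitatory neurons are therefore also given without the cortical layer-like nuclei of hippocampal libraries and with units 1 to 3 alone. Cell types were named from marker genes after a clustering that left out all 6 genes and the rest of their pathway lists. The unnamed remainder was 23.6% of hippocampal and 9.74% of cortical nuclei. Levels are UMIs per 1000000 UMIs of a unit and type, written CPM.

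The genes lie apart in the genome (GRCm38, GENCODE M21). Nr3c1 spans chr18:39410545-39519421 on the minus strand and Nr3c2 chr8:76899442-77245012 on the plus strand. Fkbp5 spans chr17:28399094-28517527 and Hsd11b1 chr1:193221634-193264075, both on the minus strand. Sgk1 spans chr10:21882184-21999903 on the plus strand, and Tsc22d3 chrX:140539528-140600659 on the minus strand. All 6 are annotated as protein-coding.

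Corticosterone reaches the brain from the adrenal gland and binds both receptors inside cells, after which they enter the nucleus and act on gene transcription. Nr3c2, the mineralocorticoid receptor, binds the hormone with the higher affinity and is known for its abundance in hippocampal neurons. Nr3c1, the glucocorticoid receptor, binds it less tightly and is found in most cell types. Hsd11b1 encodes the enzyme that regenerates active hormone from its inert keto form within cells. Fkbp5 encodes a cochaperone of the receptor complex that lowers its hormone binding. Sgk1 encodes a kinase, and Tsc22d3 a leucine zipper protein (GILZ), both known as direct targets of the receptors.

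Both receptors bind DNA as pairs at a palindrome of 2 half-sites spaced by 3 bases, here searched as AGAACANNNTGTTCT. RefSeq start-site windows of 300 bases (250 before and 50 after a start, GRCm38.p6) were found for 5 of the 6 genes, 12 windows in all. Of these, 1 Sgk1 window matched all 12 fixed bases of the motif, and another Sgk1 window matched 10. The sequences are shown because they are the only ones of the 12 windows with 2 or fewer mismatches. Capitals mark the stretch aligned to the motif, which reads the same on both strands.
Sgk1, chr10:21993681-21993735, plus strand: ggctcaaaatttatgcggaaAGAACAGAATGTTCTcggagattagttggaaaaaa
Sgk1, chr10:21985901-21985955, plus strand: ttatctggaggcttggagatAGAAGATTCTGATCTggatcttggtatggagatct
A full match occurred in 3 of 32851 windows in the table, and 2 or fewer mismatches in 1.84%. A match in a window is a description of its letters and not a binding site.

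Nr3c2 was higher in hippocampal than in cortical excitatory neurons. In excitatory neuron-like nuclei its level was 59.3, 77.7, 100.9 and 67.3 CPM in hippocampus units 0 to 3, against 15.6, 15.6, 19.8 and 19.4 CPM in cortex units 0 to 3. The lowest hippocampal unit lay above every cortical one. The difference was 2.12 ± 0.20 on the log2 scale (SE, n = 4 units each), or 4.36-fold, with an edgeR adjusted p of 8.14e-06. Without the cortical layer-like nuclei in hippocampal libraries, a check added after seeing the data, it was 2.37 (edgeR adjusted p = 1.15e-08), and with units 1 to 3 alone 2.19 (edgeR adjusted p = 3.13e-17). Fkbp5, the cochaperone, moved the same way: 31.2, 46.9, 39.8 and 51.9 CPM in hippocampus against 15.6, 18.4, 17.1 and 15.96 CPM in cortex. The groups did not overlap, and the difference was 1.34 ± 0.21 (SE, edgeR adjusted p = 0.000491), or 2.54-fold. It was 1.44 without the cortical layer-like nuclei and 1.48 with units 1 to 3 alone (edgeR adjusted p = 1.90e-05 and 2.53e-08). Counts were summed over nuclei here, and nuclei with and without a UMI were not compared. Fewer cells that express a gene and less RNA per cell are therefore not told apart.

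Nr3c1 went the other way in these nuclei. Its level was 71.7, 65.4, 65.1 and 67.3 CPM in hippocampal excitatory neurons, against 89.0, 99.9, 121 and 102.02 CPM in cortical ones. The hippocampal units were close together and all below the cortical ones. The difference was -0.58 ± 0.14 (SE, edgeR adjusted p = 0.0102). It was -0.74 without the cortical layer-like nuclei and -0.67 with units 1 to 3 alone (edgeR adjusted p = 0.000636 and 2.77e-05). Over all nuclei 3 of the 6 genes were called between regions, against 17.7% of genes. Nr3c1 and Sgk1 lay near the threshold there, at -0.41 and 0.38 (edgeR adjusted p = 0.0583 and 0.0742). Without cortex unit 0 both were called, at -0.47 and 0.51 (edgeR adjusted p = 0.0145 and 0.00438), and without hippocampus unit 0 Nr3c1 was called, at -0.58 (edgeR adjusted p = 0.00377). Sums over all nuclei also carry the cell mix. Oligodendrocyte-like nuclei, at a mean of 1344 CPM of Sgk1, numbered 295 in hippocampus and 18 in cortex. They held 287 of the 1083 hippocampal Sgk1 UMIs. The part of cell mix in the all-nuclei values was not tested. In excitatory neuron-like nuclei 3 of the 5 genes tested were called, against 15.8% of all 10943 genes tested there (adjusted p under 0.05). Sgk1 did not pass, with a difference of -0.01 ± 0.16 (SE, edgeR adjusted p = 0.983), and neither did Tsc22d3, with -0.15 ± 0.22 (SE, edgeR adjusted p = 0.726). Hsd11b1 had too few UMIs for the test, 18 in 2536 hippocampal nuclei and 9 in 4061 cortical ones.

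The balance of the receptors was then compared as the share of Nr3c2 among the UMIs of both. UMIs of 2 genes depend on each transcript's capture as well as on its abundance, and the genes differ in span (345571 bases for Nr3c2 and 108877 for Nr3c1), so only differences in this share between cell types are read. Nr3c2 made up 45.2%, 54.3%, 60.8% and 50% in excitatory neurons of hippocampus units 0 to 3. In cortex units 0 to 3 it made up 14.9%, 13.5%, 14.0% and 16%. The regions did not overlap. The mean log2 ratio of Nr3c2 to Nr3c1 was 0.15 ± 0.38 for hippocampus and -2.53 ± 0.12 for cortex (SD over 4 units each), with a count of 0.5 added to each gene. The difference was 2.68 (exact permutation test, two-sided, p = 0.0286), and no smaller p can arise with 4 units a side. It was 3.07 without the cortical layer-like nuclei and 2.06 with neuron types weighted equally (exact permutation p = 0.0286 each).

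Within hippocampus Nr3c2 gave more UMIs than Nr3c1 in each of the 3 principal neuron types. It was 71.9% in CA3 pyramidal-like nuclei (41 of 57 UMIs, exact binomial 95% interval 58.5% to 83.0%). In CA1 pyramidal-like nuclei it was 60.4% (81 of 134 UMIs, 51.6% to 68.8%), and in dentate granule-like nuclei 59.2% (138 of 233 UMIs, 52.6% to 65.6%). The units of the 3 types overlapped, at 45.5% to 93.3% in CA3, 45.5% to 72.0% in CA1 and 44.4% to 71.9% in dentate granule-like nuclei, so their order is not resolved. These intervals cover counting error only, since they treat UMIs as independent.

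Cortical layer-like nuclei carried a low share in both sets of libraries. In cortex libraries Nr3c2 made up 18.0% in layer 2-3, 15.2% in layer 6 corticothalamic (CT) and 10.8% in layer 4-5 intratelencephalic (IT) nuclei. In hippocampal libraries the same types gave 13.8% (4 of 29 UMIs, exact interval 3.89% to 31.7%), 11.1% (2 of 18 UMIs, 1.38% to 34.7%) and 10.7% (3 of 28 UMIs, 2.27% to 28.2%). Within hippocampus unit 0, which holds most of them, layer 2-3-like nuclei had 3 Nr3c2 and 23 Nr3c1 UMIs, while CA1-like nuclei of the same unit had 18 and 7. Layer 5 projection-like nuclei lay between, at 34.1% in hippocampal and 34.2% in cortical libraries. Thalamic or midbrain neuron-like nuclei, found in hippocampal libraries, had 13.6% (17 of 125 UMIs). Their pooled Nr3c1 level of 207 CPM (exact Poisson 95% interval 169.8 to 249.9) was the highest of any neuron type measured. It rested mostly on hippocampus unit 0, the only unit with at least 20 such nuclei, which gave 88 of the 108 Nr3c1 UMIs.

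**Figure D1:**
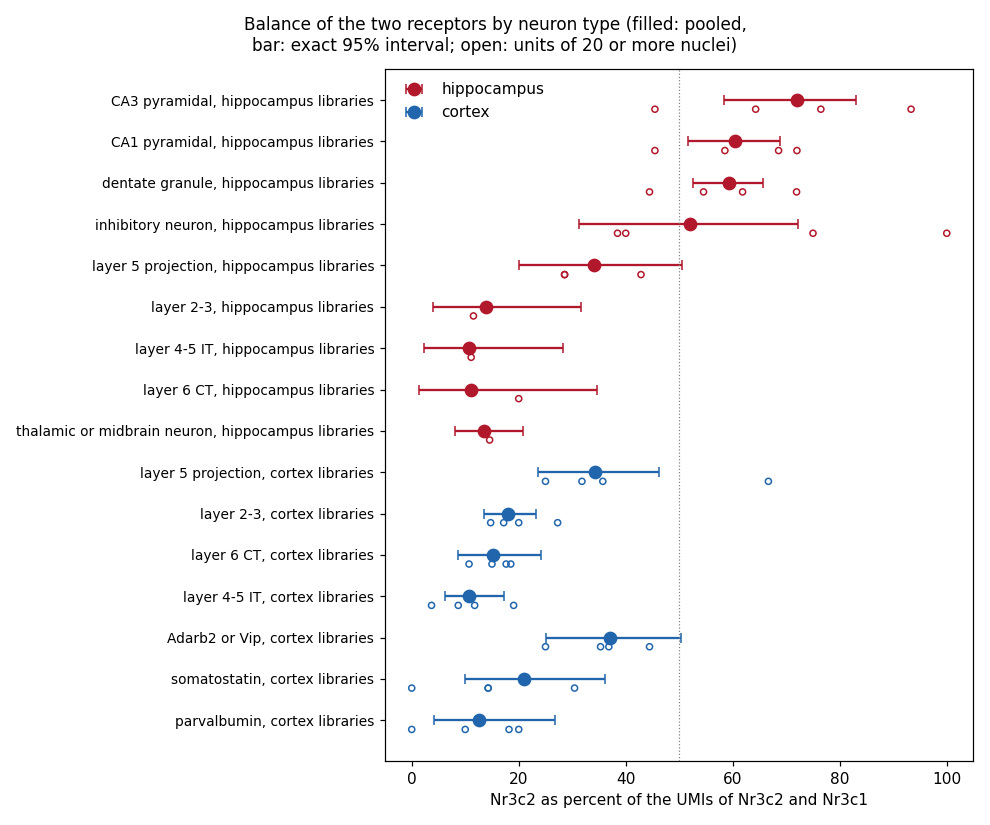
Nr3c2 as a percent of the UMIs of Nr3c2 and Nr3c1 (x axis) for each neuron type (rows), hippocampus libraries above cortex libraries; filled points pool all units with exact 95% intervals, and open points are single units of at least 20 nuclei. CA3, CA1 and dentate granule-like nuclei sit between 59.2% and 71.9%, and the layer 2-3, 4-5 and 6 types between 10.7% and 18.0% in both sets of libraries.

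Interneurons gave fewer UMIs. In inhibitory neuron-like nuclei Nr3c2 was 32.2 ± 6.0 CPM in hippocampus and 31.8 ± 9.8 CPM in cortex (SD, n = 4 units each), and the units overlapped. Nr3c1 was 46.8, 48.9, 13.5 and 0 CPM in hippocampus units 0 to 3, against 84.0, 108.9, 108.5 and 82.2 CPM in cortex. Every hippocampal unit was below every cortical one, on 12 UMIs in hippocampus, but the difference of -1.69 ± 0.44 (SE) had an edgeR adjusted p of 0.0834 and was not called. Without hippocampus unit 0 it was -2.44 (edgeR adjusted p = 0.0218), and without cortex unit 0 it was -1.76 (edgeR adjusted p = 0.0292). The other 6 fits that left out 1 unit gave no call, with values up to -1.26 and an adjusted p of up to 0.431. Of 4871 genes tested in this class, 16 were called, or 0.328%. The share of Nr3c2 was 52.0% in hippocampus (13 of 25 UMIs, exact interval 31.3% to 72.2%) and 25.5% in cortex (37 of 145 UMIs, 18.6% to 33.4%). The mean log2 ratio differed by 2.30 (exact permutation test, two-sided, p = 0.0286). It rested on units with as few as 3 receptor UMIs. Among cortical interneurons the Adarb2 or Vip type had 37.1% Nr3c2, the somatostatin type 20.9% and the parvalbumin type 12.5%, with overlapping units.

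The regional difference of Nr3c2 was larger in excitatory than in inhibitory neurons. The difference between the 2 classes' regional differences was 2.12 ± 0.49 on the log2 scale (SE, n = 4 units of each region), with an edgeR adjusted p of 0.00230. Of 9818 genes tested for this, 3.17% were called. For Nr3c1 the same term was 1.18 ± 0.44 (SE, edgeR adjusted p = 0.143) and was not called. In cortex itself, inhibitory neurons had 1.79-fold more Nr3c2 than excitatory neurons, a difference of 0.84 ± 0.31 (SE, edgeR adjusted p = 0.0366), with 19.2% of all genes called. That call was kept in 4 of 13 alternatives: DESeq2 gave 0.82 with an adjusted p of 0.314, and 3 of the 4 fits without 1 unit lost it, with values of 0.66 to 1.03 over all 4 and an adjusted p of up to 0.280. The fit without unit 3 kept it.

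The 3 hippocampal principal types were compared with each other within the same units. Nr3c2 was 139.8, 124.5, 90.9 and 103.7 CPM in CA1-like, 88.7, 36.0, 104.9 and 69.7 CPM in CA3-like, and 115.3, 91.3, 131 and 50.7 CPM in dentate granule-like nuclei. The types overlapped, and no difference passed: dentate granule minus CA1 was -0.41 ± 0.22 (SE, edgeR adjusted p = 0.192), CA3 minus CA1 -0.61 ± 0.31 (0.189) and dentate granule minus CA3 0.23 ± 0.27 (0.608). Without unit 2 the Nr3c2 difference of dentate granule minus CA1 was -0.67 (edgeR adjusted p = 0.0433). Called genes made up 24.1%, 15.1% and 24.8% of those tested in these 3 comparisons.

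Dentate granule-like and CA3-like nuclei differed in the other receptor and in Sgk1, on small counts. Nr3c1 was 71.2, 76.1, 51.1 and 63.4 CPM in dentate granule-like nuclei, against 27.3, 43.2, 7.5 and 38.7 CPM in CA3-like ones (16 UMIs). The difference was 1.02 ± 0.38 (SE, edgeR adjusted p = 0.0435), or 2.03-fold. Sgk1 was 49.1, 51.7, 28.8 and 43.1 CPM in dentate granule-like and 102.3, 57.7, 97.4 and 62.0 CPM in CA3-like nuclei, a difference of -1.02 ± 0.32 (SE, edgeR adjusted p = 0.0145). Neither pair of groups overlapped. Neither call was stable: Nr3c1 had an adjusted p of 0.295 by DESeq2 and lost its call without any 1 of the 4 units (0.0630 to 0.153), and Sgk1 had 0.196 by DESeq2. Fkbp5 was 55.5 ± 14.3 CPM in dentate granule-like nuclei, 21.8 ± 10.3 in CA3-like and 38.5 ± 20.7 in CA1-like nuclei (SD, n = 4). It was tested only between dentate granule and CA1-like nuclei, where it did not pass (0.37 ± 0.34, SE, edgeR adjusted p = 0.489).

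No difference between cortical layers was called in these genes. Neither Nr3c1 nor Sgk1, the 2 tested, passed between layer 2-3 and layer 6 CT-like nuclei or between layer 5 projection and layer 6 CT-like nuclei, where 14.0% and 8.44% of genes were called. Sgk1 was 59.0, 45.0, 61.9 and 60.7 CPM in layer 2-3 and 103.1, 76.7, 87.9 and 84.5 CPM in layer 6 CT-like nuclei, with no overlap. Its difference of -0.65 ± 0.25 (SE) had an edgeR adjusted p of 0.0725. At the halved and doubled clustering resolutions that p was 0.0473 and 0.0216.

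Hsd11b1 was higher in hippocampal than in cortical astrocytes. Astrocyte-like nuclei had 154.5, 235, 251 and 236 CPM in hippocampus units 0 to 3 (134 UMIs in 602 nuclei), against 0, 29.5, 0 and 0 CPM in cortex (1 UMI in 156 nuclei). Every hippocampal unit exceeded every cortical one. The ratio of the pooled levels was 64.7, with an exact 95% counting interval of 11.4 to 2574. Leaving out 1 unit moved the edgeR difference between 5.03, without cortex unit 0, and 7.88, without cortex unit 1, which holds the only cortical UMI. With all units it was 5.73 ± 0.66 (SE, n = 4 units each, edgeR adjusted p = 1.01e-08), in a comparison where 5.64% of 2428 genes were called. The gene passed the count filter on its hippocampal units alone, and the p-value is read with that limit. In the largest astrocyte cluster alone, which both regions share, Hsd11b1 had 118 UMIs in 405 hippocampal nuclei and 0 in 93 cortical ones. The hippocampal level was 14.9-fold above a floor of 3 counts over the cortical nuclei. This is not a lower bound, since the exact 95% upper limit for the cortical nuclei was 23.8 CPM and the floor 19.4 CPM.

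The other astrocyte clusters had less of it. The Gfap-rich cluster gave 48.3 CPM in hippocampus (7 UMIs in 78 nuclei, exact Poisson interval 19.4 to 99.5) and 6.11 CPM in cortex (1 UMI in 63 nuclei). An Agt-rich cluster, found in hippocampal libraries, gave 86.1 CPM (9 UMIs in 119 nuclei, 39.4 to 163), while the largest cluster gave 288 CPM (238 to 345). Gja1, an astrocyte gap junction gene, was 2181 to 2687 CPM in the hippocampal part of all 3 clusters, and 1001 to 1357 CPM in the cortical part of the 2 shared ones. Summed astrocyte markers were 23596 to 30463 CPM in hippocampal and 18148 to 20994 CPM in cortical astrocyte-like units, with all 10 detected. Their part in the difference was not tested.

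Of the 3 principal neuron types of hippocampus, CA3-like nuclei had the highest pooled level of Hsd11b1, and their units overlapped those of CA1-like nuclei. It was 6.8, 14.4, 22.5 and 23.2 CPM in CA3-like units, against 7.8, 0, 0 and 4.3 CPM in CA1-like and 0, 0, 6.4 and 0 CPM in dentate granule-like units. The 9 UMIs in CA3 compare with 2 in CA1 and 2 in dentate granule-like nuclei, a ratio of pooled levels of 5.90 to CA1 (exact counting interval 1.22 to 56.1) and 11.9 to dentate granule-like nuclei (2.45 to 113). Summed astrocyte markers were also higher in CA3-like units, at 1093 to 1739 CPM against 473 to 785 CPM in CA1-like and 919 to 1043 CPM in dentate granule-like units. Much of that sum was the marker Slc1a2, at 742 ± 179, 174 ± 64.1 and 227 ± 27.2 CPM in CA3, CA1 and dentate granule-like units (SD, n = 4). The marker Gja1 was 18.0 ± 8.9, 13.4 ± 17.5 and 18.2 ± 10.6 CPM in the same units (SD, n = 4). The part of astrocyte RNA in the CA3 level of Hsd11b1 was not tested. The count of Hsd11b1 was too low for the test across genes.

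Nr3c2 was also present in hippocampal astrocytes. Its level was 73.7, 87.3, 53.8 and 43.8 CPM in hippocampal astrocyte-like units, against 21.0, 0, 0 and 19.7 CPM in cortical ones (45 and 5 UMIs). The regions did not overlap, but the gene was below the count filter and was not tested; the pooled ratio was 4.34 (exact counting interval 1.73 to 14.0). Its share of receptor UMIs was 37.8% in hippocampal and 9.09% in cortical astrocytes. C1ql2, a gene of dentate granule neurons, was 41.7 ± 19.4 CPM in hippocampal astrocyte-like nuclei and 103 ± 28.8 CPM in hippocampal excitatory ones (SD, n = 4). Doublet calls made up 4.82% of hippocampal astrocyte-like nuclei. The part of free RNA or doublets in the astrocyte Nr3c2 level was not tested. Nr3c1 in astrocytes was 111 ± 17.0 CPM in hippocampus and 154.8 ± 64.2 CPM in cortex. The difference was -0.43 ± 0.33 (SE, edgeR adjusted p = 0.559).

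**Figure D2:**
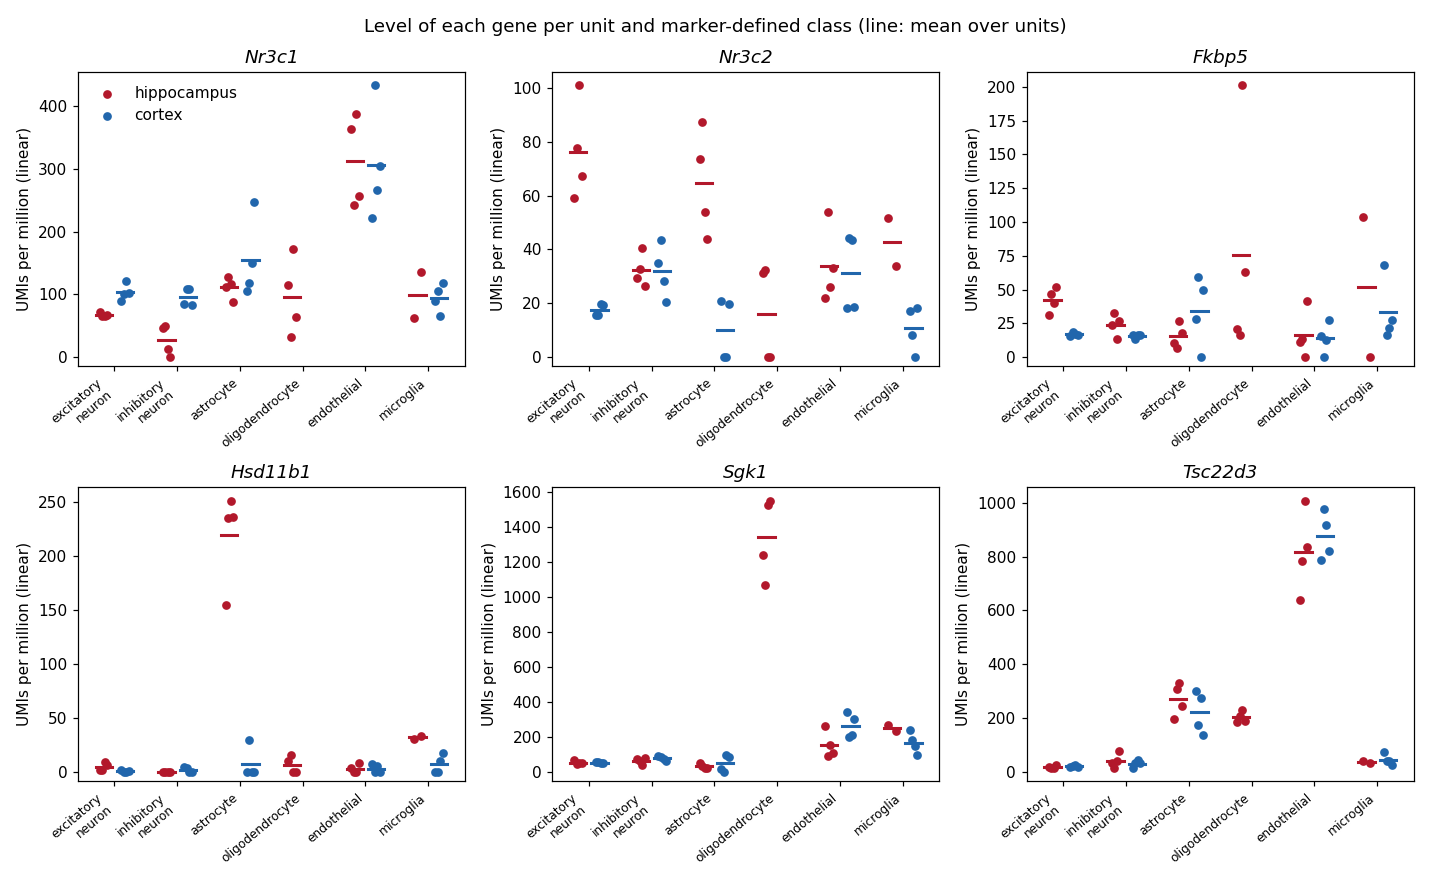
Level of each gene (y axis, CPM, linear) in each marker-defined class (x axis), hippocampus left of cortex; each point is 1 unit of at least 20 nuclei and each line the mean over units. Hsd11b1 stands out in hippocampal astrocytes (mean 219 CPM), Sgk1 in oligodendrocytes (1344 CPM) and Tsc22d3 in endothelial nuclei of both regions (816 and 875 CPM).

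Glial and vascular nuclei differed from neurons in every one of the 6 genes in at least 1 comparison. Against hippocampal excitatory neurons, 4 of 6 genes were called in astrocytes, 3 of 5 in oligodendrocytes and all 5 tested in endothelial nuclei. The share of all genes called was high there too, at 40.1%, 29.5% and 63.8%. A gene could pass the count filter through either class alone, as Hsd11b1 did through astrocytes. The median log2 difference over all genes was -0.02, -0.12 and -0.26 in these fits, and -0.06, -0.35 and -0.46 with the RLE scaling of library sizes, so small differences are not read in the last 2.

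Sgk1, the kinase, was higher in oligodendrocytes than in excitatory neurons. It was 1237, 1067, 1523 and 1549 CPM in hippocampal oligodendrocyte-like units, against 68.0, 44.4, 50.5 and 50.8 CPM in excitatory neurons of the same units. The difference was 4.72 ± 0.20 on the log2 scale (SE, edgeR adjusted p = 1.80e-114), or 26.3-fold. No other class measured in at least 3 units reached the oligodendrocyte range. Endothelial nuclei had 264, 94.5, 155 and 107.5 CPM of Sgk1, 2.66-fold above excitatory neurons (1.41 ± 0.29, SE, edgeR adjusted p = 5.27e-06). Without hippocampus unit 0 that value was 0.84 with an adjusted p of 0.0564. A group of 26 choroid plexus-like nuclei, all in hippocampus unit 0, had 594 CPM (exact Poisson interval 418.5 to 819).

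Tsc22d3 followed another order, highest in endothelial nuclei and then in astrocytes and oligodendrocytes. It was 639, 783, 1008 and 835 CPM in hippocampal endothelial-like units, against 19.3, 14.8, 17.3 and 26.5 CPM in excitatory neurons. The difference was 5.16 ± 0.24 (SE, edgeR adjusted p = 1.77e-98), or 35.8-fold. Astrocytes had 14.7-fold more than excitatory neurons (3.88 ± 0.24, SE, edgeR adjusted p = 9.00e-18) and oligodendrocytes 11.4-fold more (3.51 ± 0.40, edgeR adjusted p = 4.53e-17). Units of hippocampal astrocytes (197 to 332 CPM) and oligodendrocytes (187 to 229.9 CPM) overlapped. Among neuron groups of hippocampus with 4 units, the highest mean was the 42.7 CPM of inhibitory neurons.

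The receptors themselves also differed among these classes. Nr3c1 was 364, 243, 388 and 256 CPM in hippocampal endothelial units, 4.11-fold above excitatory neurons (2.04 ± 0.25, SE, edgeR adjusted p = 1.34e-15). In astrocytes it was 1.83-fold above them (0.87 ± 0.24, SE, edgeR adjusted p = 0.00241), and in oligodendrocytes it did not pass (0.58 ± 0.42, edgeR adjusted p = 0.318). Nr3c2 was lower than in excitatory neurons in endothelial nuclei (-1.30 ± 0.40, SE, edgeR adjusted p = 0.00256) and in oligodendrocytes (-1.57 ± 0.62, edgeR adjusted p = 0.0399). The oligodendrocyte call rested on 5 UMIs and had an adjusted p of 0.072 by DESeq2. It was lost without unit 1, 2 or 3 (edgeR adjusted p = 0.0634, 0.151 and 0.110), and without 1 unit the value ranged from -2.42, without unit 0, to -1.28, without unit 2. In astrocytes Nr3c2 did not pass (0.05 ± 0.27, SE, edgeR adjusted p = 0.915). The share of Nr3c2 among receptor UMIs was 8.43% in hippocampal and 9.05% in cortical endothelial nuclei. Fkbp5 was lower in astrocytes (-1.36 ± 0.47, SE, edgeR adjusted p = 0.0173) and in endothelial nuclei (-1.28 ± 0.51, edgeR adjusted p = 0.0206) than in excitatory neurons, on 9 UMIs in each class. Each of these 2 calls was lost without any of 3 units in turn.

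**Figure D3:**
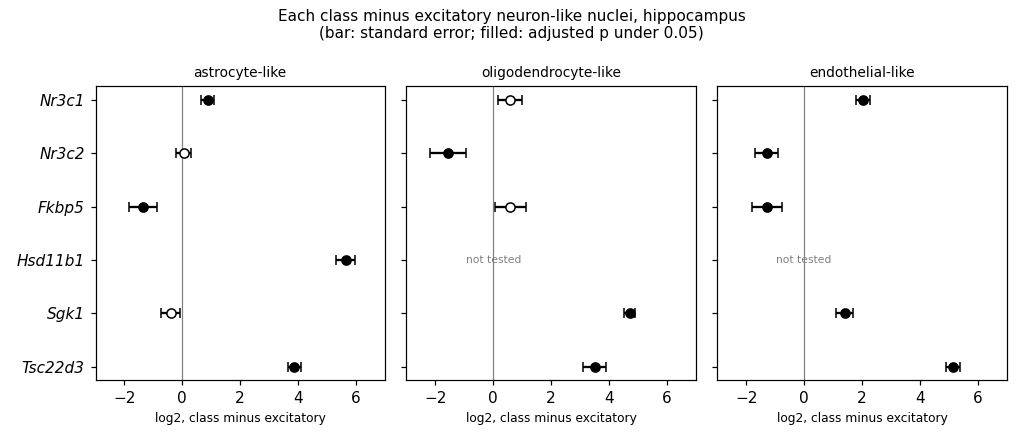
Log2 difference of each gene (rows) between astrocyte, oligodendrocyte or endothelial-like nuclei and excitatory neuron-like nuclei of hippocampus (x axis), with standard errors; filled points had an adjusted p under 0.05. Sgk1 is far to the right in oligodendrocytes (4.72), Hsd11b1 in astrocytes (5.66) and Tsc22d3 in all 3 classes (3.51 to 5.16).

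Between regions, endothelial nuclei showed no called difference in the 3 genes tested. Nr3c1 differed by 0.05 ± 0.23 (SE, edgeR adjusted p = 0.968) and Tsc22d3 by -0.17 ± 0.16 (0.726), hippocampus minus cortex. Sgk1 differed by -0.69 ± 0.29 (edgeR adjusted p = 0.259), and without hippocampus unit 0 by -1.32 (edgeR adjusted p = 0.00936). Of 2864 genes tested, 3.46% were called. Tsc22d3 in astrocytes was 271 ± 61.5 CPM in hippocampus and 222 ± 77.3 CPM in cortex (SD, n = 4). The difference was 0.30 ± 0.28 (edgeR adjusted p = 0.643). Cortical oligodendrocytes numbered 18 nuclei and were not compared.

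**Figure D4:**
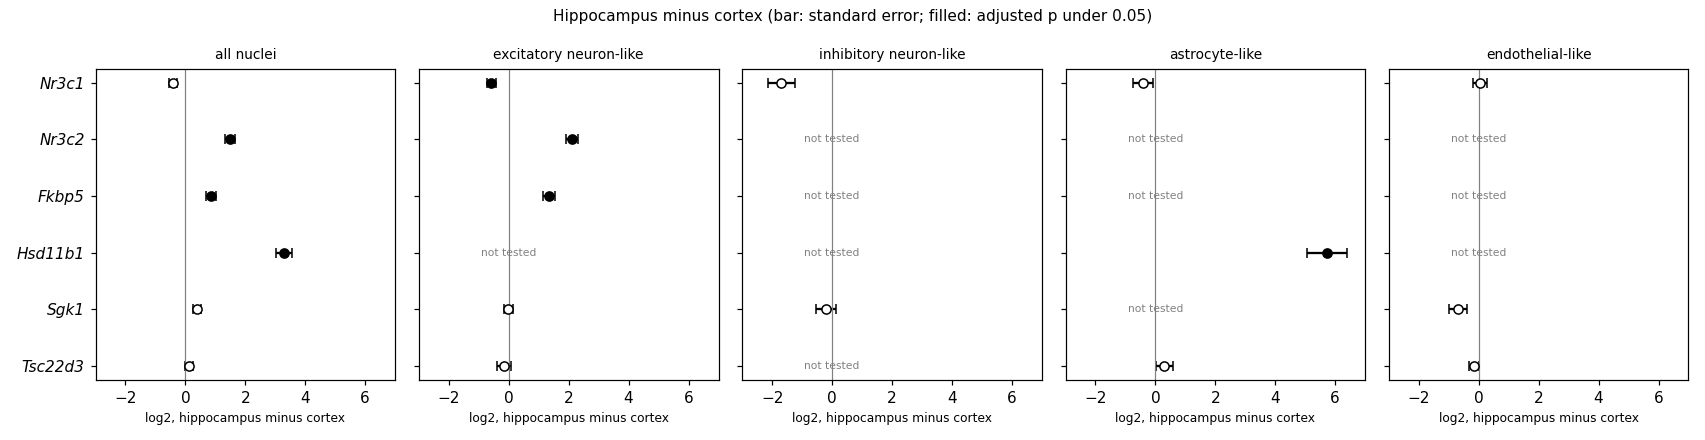
Log2 difference between hippocampus and cortex for each gene (rows) in all nuclei and in 4 classes (x axis), with standard errors; filled points had an adjusted p under 0.05, and genes below the count filter are marked. Nr3c2 (2.12) and Fkbp5 (1.34) lie right of zero and Nr3c1 (-0.58) left of it in excitatory neurons, and Hsd11b1 (5.73) lies far right in astrocytes.

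Other genes of the pathway were counted from fixed lists. Of 10 chaperones and cochaperones of the receptor complex, 1 rose and 1 fell in hippocampal against cortical excitatory neurons, which is near the 15.8% of all genes called there. Ptges3, which encodes the p23 cochaperone, rose by 0.68 ± 0.21 on the log2 scale and Dnajb1, a cochaperone of Hsp70, fell by 0.82 ± 0.27 (SE, edgeR adjusted p = 0.0423 and 0.0489). None of the 10 coregulators passed, with a median of 0.06 beside -0.01 over all genes. In the list of 8 genes of steroid metabolism and transport, 2 of the 6 tested rose. Cyp7b1, an enzyme that hydroxylates steroids, was 36.0 ± 9.1 CPM in hippocampus and 10.2 ± 1.1 CPM in cortex (SD, n = 4). The difference was 1.82 ± 0.23 (SE, edgeR adjusted p = 0.000111). Por, the electron donor of such enzymes, rose by 0.60 ± 0.15 (SE, edgeR adjusted p = 0.0123). Cyp7b1 and Por were also 2.79- and 3.56-fold higher in astrocyte-like than in excitatory neuron-like nuclei of hippocampus. Astrocyte-like nuclei made up 10.6% of hippocampal and 2.6% of cortical nuclei. The part of free astrocyte RNA in the regional values of Cyp7b1 and Por was not tested.

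Of 28 further genes known to be induced by corticosteroids, 27 were in the table and 19 were tested in excitatory neurons. In hippocampus 6 rose and 1 fell, with a list median of 0.42 beside -0.01 over all genes. Among all genes tested there, 8.5% rose and 7.27% fell. In this and the other lists, a gene could pass the count filter through either region alone. The counts and the median thus describe the genes tested and are not a test of the list. Rasd1, a small G protein, was 29.6 ± 14.1 CPM in hippocampus and 2.27 ± 1.25 CPM in cortex (SD, n = 4). The difference was 3.65 ± 0.53 (SE, edgeR adjusted p = 0.000345). The metallothionein Mt1 rose by 1.18 ± 0.16 (edgeR adjusted p = 0.000157) and the zinc finger gene Zbtb16 by 1.11 ± 0.19 (edgeR adjusted p = 0.00119). Dusp1, a phosphatase gene that neuronal activity also induces, fell by 1.26 ± 0.27 (edgeR adjusted p = 0.00449). In astrocytes only Mt2, another metallothionein, passed of 9 tested, at 0.73 ± 0.23 (SE, edgeR adjusted p = 0.0476). In endothelial nuclei none of 15 passed between regions. The share of all genes called was 5.64% in astrocytes and 3.46% in endothelial nuclei, so these counts are not read as a result about the list. Mt1 was also 26.5-fold higher in astrocyte-like than in excitatory neuron-like nuclei of hippocampus, and Zbtb16 2.73-fold lower. The part of free astrocyte RNA in the regional value of Mt1 was not tested.

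Many tested genes of the same list were higher in glia and vessels than in excitatory neurons. Against excitatory neurons of hippocampus, 10 of 15 tested rose and 1 fell in astrocytes, 7 of 13 rose and 1 fell in oligodendrocytes, and 16 of 20 rose and 1 fell in endothelial nuclei. The list medians were 1.22, 1.55 and 3.18. Of all genes tested, 20.9%, 13.6% and 27.8% rose and 19.3%, 15.9% and 36% fell. A gene could pass the count filter through either class alone. Genes scarce in neurons thus entered where the other class was high, and could hardly fall. The counts and medians describe the genes tested and are not a test of the list. In all 3 classes the gene that fell was Zbtb16, by 1.45, 1.21 and 1.68. Glul, the glutamine synthetase gene, rose by 5.35 in astrocytes, 4.52 in oligodendrocytes and 4.29 in endothelial nuclei. Arrdc2 rose by 5.03 in oligodendrocytes, and Nfkbia, an inhibitor of NF-kappaB, by 5.62 in endothelial nuclei (SE 0.33 and 0.25, edgeR adjusted p = 1.05e-50 and 1.58e-109).

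The CRH and stress peptide list held 9 genes, of which 4 were tested in all nuclei and 2 were called, where 17.7% of all genes were called. Crh, the hypothalamic releasing hormone that cortical interneurons also express, was 1.93 ± 1.25 CPM in hippocampus and 7.03 ± 1.23 CPM in cortex (SD, n = 4). This gave a difference of -1.69 ± 0.38 (SE, edgeR adjusted p = 0.00695). Its receptor gene Crhr1 fell by 1.12 ± 0.28 (edgeR adjusted p = 0.0146). Both values are sums over all nuclei and carry the cell mix. Interneurons numbered 186 in hippocampus and 578 in cortex, and excitatory neurons 2536 and 4061. Inside each of these classes only 1 gene of the list was tested between regions, and neither test gave a call. The log2 differences were 0.20 in inhibitory and -1.02 in excitatory neurons. How far the cell mix shaped the all-nuclei values of Crh and Crhr1 was not tested. Within cortex, interneurons had more Crh (4.24 ± 0.43, SE, edgeR adjusted p = 2.43e-19) and more of the binding protein gene Crhbp (4.52 ± 0.39, edgeR adjusted p = 6.27e-26) than excitatory neurons, and less Crhr1 (-1.60 ± 0.29, edgeR adjusted p = 1.16e-06). These were the 3 genes of the list tested there, and 19.2% of all genes were called.

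The genes most like each member across 21 region-by-type groups were ranked by Pearson's r of mean log2(CPM + 1), among 12961 genes of at least 20 CPM in a group. Nr3c1 was most like Eif4h (0.923), Dynlrb1 (0.918) and Bnip2 (0.889), and Nr3c2 was most like Jmjd8 (0.816), Dhrs7b (0.777) and Lman2l (0.761). Hsd11b1 was most like Tmem52 (0.834), Prkcd (0.796) and Agt (0.791), and Sgk1 most like Hapln2 (0.825), Mboat1 (0.821) and Mtmr2 (0.808). Inside hippocampal astrocytes, pooled as 1 group here, Hsd11b1 and Agt did not run in parallel. The largest cluster had 288 CPM of Hsd11b1 and 183 CPM of Agt. The Gfap-rich cluster had 48.3 and 787 CPM, and the Agt-rich cluster 86.1 and 1473 CPM. Tsc22d3 was most like Ddit4 (0.920), Prkcdbp (0.917) and Rdm1 (0.912), while Fkbp5 reached only 0.710, with Dbr1, then 0.693 with Zfp182 and 0.689 with Tex2. Among the 6 genes themselves, Nr3c1 and Tsc22d3 were the most alike (0.725), and Nr3c1 and Nr3c2 gave 0.09. These values describe the groups, which share libraries and differ in depth, and many genes of low counts enter.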

How the data were processed

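The authors deposited a table of raw UMI counts per gene and nucleus. STAR, Seurat and mm10 are named per the submitters' processing notes; the sources used here do not give whether intronic reads were counted. Of 13313 columns, 1689 carry a library name that matches no label and were not used. The members and gene lists were chosen with earlier results of these data known, and the tests below are read with that in mind.

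Nuclei were clustered in scanpy 1.11.5 (Leiden, resolution 4.0, leidenalg 0.10.2) without the 71 pathway genes. The resolution was set after 2.0 had merged CA1 with CA3, and clusters were named from marker lists; names may differ from the study's. Doublet calls, 5.27% of nuclei, were kept and removed in an alternative. Counts were summed per unit and type (20 or more nuclei) and tested by quasi-likelihood in edgeR 4.0.16 (filterByExpr, TMM scaling, Benjamini-Hochberg over all genes tested, R 4.3.3), with the unit as a block where types of the same libraries were compared. The procedure was tested on simulated data. Intervals are exact at 95% and cover counting error only; depth per type limits them. A count of 0.5 was added in the receptor ratio, chosen after seeing the data, since 1 unit had no Nr3c1 UMI. All members are named in each comparison, and of each list up to 3 genes per direction with the smallest adjusted p, of which a selection is printed; for each member the 3 genes of highest Pearson r are named too. DESeq2 1.42.0 was an alternative.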

Additional observations from a re-analysis of the deposited data

Results flagged for a closer look

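Hippocampus unit 0 had 145.8 CPM of Sgk1 over all nuclei, while the other 3 hippocampus units had 107.5 to 110.2 CPM. The same unit had 154.5 CPM of Hsd11b1 in astrocyte-like nuclei, below the 235 to 251 CPM of the others. Each gap took most of its group's range. These were 2 of 59 groups of 4 units examined, and chance flags about 1 in 20. Unit 0 also held all 26 choroid plexus-like nuclei (594 CPM of Sgk1) and most layer 2-3 and layer 4-5-like nuclei of the hippocampal libraries. Their part in either value was not tested.

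The regional difference was larger in excitatory than in inhibitory neurons for Nr3c2, by 2.117 on the log2 scale with an edgeR adjusted p of 0.00230. For Zbtb16 the term was 1.48 (edgeR adjusted p = 2.56e-05), and the mean levels went opposite ways in the 2 classes. In excitatory neurons Zbtb16 was 178 ± 23.7 CPM in hippocampus and 82.2 ± 25.3 CPM in cortex. In inhibitory neurons it was 96.4 ± 45.1 CPM in hippocampus and 146 ± 26.9 CPM in cortex (SD, n = 4 units). For Nfkbia the term was 2.36 (edgeR adjusted p = 0.0306). It rested on 4 UMIs of Nfkbia in hippocampal interneurons.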

How the results depend on the processing

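Of the 57 results for single genes, 23 passed the test. Over 355 alternatives these kept their direction, 316 kept the call and 39 lost it, and 16 results were called in every alternative run. The calls lost at least once were Nr3c1 and Sgk1 between dentate granule and CA3-like nuclei, Fkbp5 in astrocytes and endothelial nuclei, Sgk1 in endothelial nuclei, Nr3c2 in oligodendrocytes, and Nr3c2 between cortical neuron classes. Among results not called, 31 of 517 alternatives gave a call and 29 turned the sign. Nr3c1 in inhibitory neurons was called with numbers 1 to 3 alone (-2.51, edgeR adjusted p = 0.00618). The cause of these changes was not tested.

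Across regions, same-numbered units of 1 to 3 were no more alike than differently numbered ones. Each correlation used deviations from the mean of all units of a region, the outlying unit 0 included. With so few pairs this cannot settle whether a number stands for the same animal. Same-numbered units correlated at 0.0968, 0.0167 and 0.0295, and different numbers among 1 to 3 at 0.0322 to 0.167. The units numbered 0, which stood apart in both regions, correlated at 0.428, and other pairs with a unit 0 at -0.241 to -0.148. With the replicate block the receptor ratio gave 2.679 in excitatory and 2.301 in inhibitory neurons, each with an exact permutation p of 0.125, the smallest 4 pairs allow. With numbers 1 to 3 alone it gave 2.831 and 2.866 (exact permutation p = 0.1 each, the smallest possible). Leaving out 1 unit gave 2.52 to 2.82 and 1.608 to 2.754, all at the smallest exact permutation p of 0.0571. Weighting types equally gave 2.056 in excitatory (exact permutation p = 0.0286) and 2.186 in inhibitory neurons (exact p = 0.133). The block also brought calls for Nr3c1 (-0.4126, edgeR adjusted p = 0.0429) and Sgk1 (0.3756, edgeR adjusted p = 0.00985) over all nuclei, so 5 of the 6 genes, and for Sgk1 in endothelial nuclei (-0.7798, edgeR adjusted p = 0.0411). Number 0 as a term called Nr3c1 and Sgk1 over all nuclei at adjusted p of 0.0175 and 0.00188. The part of cell mix in these all-nuclei values was not tested.

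Counts of called genes moved by more than 1.5 times as follows. Over all nuclei, 4186 were called with numbers 1 to 3 and 3672 with number 0 as a term. In excitatory neurons it was 3468 and 3044 with those settings, and 2687 without cortical layer-like nuclei. In inhibitory neurons it was 3 with DESeq2, 48 without the count filter, 1 with doublets removed, 243 and 1 at halved and doubled resolution, 102 with numbers 1 to 3, 32 with the block and 60 with number 0 as a term. In astrocytes it was 75 with DESeq2, 1053 at halved resolution and 326 with numbers 1 to 3. In endothelial nuclei it was 51, 213, 48, 43, 151, 168 and 211 with DESeq2, no filter, no doublets, doubled resolution, numbers 1 to 3, the block and the number 0 term. DESeq2 called 656, 181 and 631 for dentate minus CA1, CA3 minus CA1 and dentate minus CA3, 300 and 46 for layers 2-3 and 5 minus layer 6, 861 for cortical neuron classes and 140 for the region by class term. Without the block the layers gave 421 and 118 and the neuron classes 908. With numbers 1 to 3 layer 5 gave 200 and the neuron classes 1242. Oligodendrocytes gave 1432 at halved resolution and 1368 with nuclei of at least 600 UMIs. The region by class term gave 788 and 158 at halved and doubled resolution and 622 without cortical layer-like nuclei. Leaving out 1 unit gave 1117 to 2520 in excitatory neurons, 3 to 79 in inhibitory neurons, 58 to 238 in astrocytes, 25 to 207 in endothelial nuclei, 175 to 437 for the region by class term, 200 to 239 for layer 5 and 1242 to 1671 for the neuron classes.

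Signs turned only in results that were not called. Between regions Sgk1 in excitatory neurons was 0.01366 without doublets and 0.02521 without cortical layer-like nuclei, and Nr3c1 in endothelial nuclei was -0.2503 with numbers 1 to 3. At doubled resolution Tsc22d3 in excitatory neurons was 0.008388 and Sgk1 in inhibitory neurons 0.2356, and the region by class term was -0.1653 for Sgk1 and 0.2294 for Tsc22d3. At halved resolution Nr3c2 was -0.109 for dentate minus CA3 and Sgk1 0.2632 in astrocytes. Nr3c2 in astrocytes against excitatory neurons was -0.04958 with DESeq2, -0.1652 without the filter, -0.1966 without doublets, -0.1747 at halved resolution, -0.2463 without cortical layer-like nuclei and -0.1992 with numbers 1 to 3. Fkbp5 in oligodendrocytes was -0.183 with nuclei of at least 600 UMIs. Leaving out 1 unit gave -0.5178 to 0.8819 for that Fkbp5 value, -0.4612 to 0.04009 for Nr3c1 in dentate minus CA1, -0.7129 to 0.02053 for Nr3c1 between regions in astrocytes, -0.08799 to 0.2156 for it in endothelial nuclei, -0.1992 to 0.224 for Nr3c2 in astrocytes and -0.1614 to 0.06635 for Sgk1 in excitatory neurons.

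Depth limits values in hippocampal interneurons, CA3-like nuclei, oligodendrocytes and cortical astrocytes, where a gene can rest on a few UMIs per unit.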
